A study of Rattus norvegicus with 18 samples.

Results

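Genes for collagens, laminins and a set of other extracellular matrix proteins were followed in primary rat astrocytes and microglia kept with or without amyloid-β (Aβ) fibrils. They were taken by symbol, as every numbered chain of a collagen (such as Col4a1) or of a laminin (Lama, Lamb or Lamc with 1 digit) and 14 matrix genes listed singly. The count tables hold 47 of these genes, made up of 27 collagen chains, 8 laminin chains and 12 of the 14 single genes, among 17307 symbols in astrocytes and 17327 in microglia. Nid1 and Hspg2 were not analysed here, and neither were Col4a2, Col6a1, Col12a1, Col25a1, Lama2 and Lamb1. By role, the 47 genes are 10 fibrillar collagen chains, 14 basement membrane genes, 12 other collagen chains, 7 glycoproteins, matricellular proteins and lysyl oxidase, and 4 lecticans. Together they took between 0.743% and 0.946% of the gene counts of an astrocyte library and between 0.302% and 0.416% of those of a microglia library. Col26a1 and Lamc3 had no count in any microglia library.

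The matrix of the brain differs from that of most organs, in that lecticans bound to hyaluronan fill the space between cells and fibrillar collagens are scarce there. Basement membranes, which are sheets of laminin trimers and type IV collagen networks joined by nidogens and perlecan, surround the blood vessels beneath the astrocyte endfeet and line the brain surface. Matricellular proteins, among them thrombospondins, tenascin C, periostin and SPARC, are secreted into the matrix and act mainly on cells, and astrocyte thrombospondins are known to promote the formation of synapses.

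The sequence around the transcription start is shown for 5 genes on which the results turn. Col4a1 and Lamc1 rose with both fibrils in both cell types, Col4a3 rose in microglia, Thbs1 fell in microglia and, with Aβ42 fibrils, in astrocytes, and Col11a1 fell in astrocytes and rose in microglia. The windows are 300 bases long, are credited to RefSeq (assembly GRCr8) and run 5′ to 3′ on the strand of the gene, from upstream of its start into the first transcribed bases. They lie at chr16:84885347-84885646 (plus strand) for Col4a1, chr13:68051937-68052236 (minus strand) for Lamc1, chr9:91323740-91324039 (plus strand) for Col4a3, chr3:125510000-125510299 (plus strand) for Thbs1 and chr2:204508886-204509185 (plus strand) for Col11a1. Capitals mark matches, on either strand, to the GC box GGGCGG and the CCAAT box, which on the opposite strand read CCGCCC and ATTGG.
Col4a1: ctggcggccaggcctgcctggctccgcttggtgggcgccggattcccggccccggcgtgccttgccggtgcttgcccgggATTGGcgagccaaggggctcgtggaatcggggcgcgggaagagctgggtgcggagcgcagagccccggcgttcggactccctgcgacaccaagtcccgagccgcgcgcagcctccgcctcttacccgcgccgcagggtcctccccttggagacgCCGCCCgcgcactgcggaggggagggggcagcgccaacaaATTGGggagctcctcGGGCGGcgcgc
Lamc1: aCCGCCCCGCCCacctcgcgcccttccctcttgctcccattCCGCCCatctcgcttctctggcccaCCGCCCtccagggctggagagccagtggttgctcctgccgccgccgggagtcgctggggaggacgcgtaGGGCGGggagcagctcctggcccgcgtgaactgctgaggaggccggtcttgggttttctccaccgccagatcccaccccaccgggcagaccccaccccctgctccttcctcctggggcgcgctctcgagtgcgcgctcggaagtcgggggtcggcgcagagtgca
Col4a3: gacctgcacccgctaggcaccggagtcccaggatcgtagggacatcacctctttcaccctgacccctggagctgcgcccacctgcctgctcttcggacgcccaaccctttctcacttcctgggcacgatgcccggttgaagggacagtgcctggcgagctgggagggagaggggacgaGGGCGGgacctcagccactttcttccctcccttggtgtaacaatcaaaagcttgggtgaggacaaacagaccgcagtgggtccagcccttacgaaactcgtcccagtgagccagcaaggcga
Thbs1: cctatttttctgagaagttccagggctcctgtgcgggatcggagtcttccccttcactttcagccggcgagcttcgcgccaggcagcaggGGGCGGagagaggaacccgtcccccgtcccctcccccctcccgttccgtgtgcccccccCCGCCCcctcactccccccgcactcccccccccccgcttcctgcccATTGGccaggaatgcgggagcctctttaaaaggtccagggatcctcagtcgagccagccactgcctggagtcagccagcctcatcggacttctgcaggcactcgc
Col11a1: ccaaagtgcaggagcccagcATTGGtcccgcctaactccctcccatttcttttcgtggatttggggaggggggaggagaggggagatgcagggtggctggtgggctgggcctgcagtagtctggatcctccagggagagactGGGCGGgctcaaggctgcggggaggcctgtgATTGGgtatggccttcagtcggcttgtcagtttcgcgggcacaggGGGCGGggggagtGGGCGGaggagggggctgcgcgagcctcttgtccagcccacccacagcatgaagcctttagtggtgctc
The Lamc1 window holds 5 GC boxes, 2 of which overlap each other, and no CCAAT box. The Col4a1 window holds 2 of each motif, the Col11a1 window 3 GC boxes and 2 CCAAT boxes, the Thbs1 window 2 GC boxes and 1 CCAAT box, and the Col4a3 window 1 GC box. Of the 47 genes, 36 had a window, and the GC box was in 21 of those 36 genes (58.3%) against 33.1% of all 33469 promoters. The CCAAT box was in 10 of the 36 genes and 37.5% of all promoters, the TATA box TATAAA in 7 and 14.2%, the NF-κB motif in 4 and 4.18%, and the AP-1 motif TGANTCA in 0 and 7.33%. A match describes the letters of a window and not a bound site. Col14a1, Col1a1, Col2a1, Col3a1, Col6a2, Fn1, Lamb2, Lox, Nid2 and Thbs2 were among the genes without a window. In the order of the RefSeq genes, Col3a1 is a direct neighbour of Col5a2, and Col4a4 of Col4a3. Col4a4 and Col4a3 point away from each other, and their windows share 88 bases.

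The cells came from the cortex of postnatal day 2 (P2) Sprague-Dawley rat pups, wild-type by the labels. Microglia were shaken off mixed glial cultures, the loosely bound precursor cells were discarded, and the remaining layer was replated as astrocytes. After serum withdrawal each cell type was left untreated (control), or received Aβ42 fibrils at 25 µM, or Aβ40 fibrils at 25 µM, all for 24 h, with 3 replicate libraries in each of the 6 groups. The sources do not say whether replicates came from separate animals or cultures, so p-values measure only the spread between these 18 libraries, which may be technical. A library held 3674043 to 19013919 gene counts in astrocytes and 2271834 to 22274367 in microglia, and 3 counts, taken as the detection limit, correspond to 0.158 to 0.817 and to 0.135 to 1.32 CPM, the counts relative to the total of the library. Levels are given as scaled CPM from 1 TMM scaling of all 18 libraries, as mean ± SD with n = 3, and are not compared between genes because transcript lengths were not used. Changes are fitted log2 fold changes ± SE, tested in edgeR by its quasi-likelihood method, with p-values adjusted after Benjamini and Hochberg across every tested gene, and a gene rose or fell where the adjusted p was under 0.05. An exact permutation test of 3 against 3 libraries cannot give a two-sided p under 0.1 and was not used.

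Before the comparisons, 2 libraries stood apart from their group. In untreated astrocyte replicate 2, 10.9% of the tested genes lay more than 2-fold from the mean of the other two replicates, against at most 2.26% in the other astrocyte libraries, and 34.2% of its counted reads lay off genes. Of 41 tested matrix genes, 7 were under that range in this library and 0 above it. In microglia with Aβ42 fibrils, replicate 1 had 2613723 gene counts beside 22274367 and 17687416, and 6.87% of the genes lay outside the 2-fold range, against at most 1.44% in the other microglia libraries. Counts are therefore also given without each of these libraries. The tables of untreated astrocyte replicate 2 and astrocyte Aβ42 replicate 3 are named in another way than those of the other astrocyte libraries, and the deviations of these 2 libraries from their group means correlated across genes (r = 0.62), although the labels give no batch.

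The cell type labels were checked against marker genes. A list of 9 astrocyte markers, led by Gfap in astrocytes and Aldoc in microglia, summed to 10234, 8408 and 8515 CPM in the untreated astrocyte libraries and to 308, 292 and 273 in untreated microglia. A list of 9 microglia markers, led by Cd68, summed to 8738, 8658 and 9865 CPM in untreated microglia and to 363, 318 and 333 in untreated astrocytes. Each list was therefore highest in the cells it names, and neither culture was free of the other cell type's markers. Both lists were lower in treated cells of their own type, the astrocyte list at 5404, 5631 and 5769 with Aβ42 fibrils and 6418, 5977 and 6200.4 with Aβ40 fibrils, and the microglia list at 3866, 2589 and 3045 and 3483, 3505 and 4127. Of 9 astrocyte markers in astrocytes, 2 rose and 6 fell with Aβ42 and 3 rose and 6 fell with Aβ40 fibrils, and of 9 microglia markers in microglia 1 rose and 7 fell and 1 rose and 8 fell. In the astrocyte cultures the microglia list summed to 78.6, 62.7 and 55.9 with Aβ42 fibrils and 34.6, 45.1 and 40.2 with Aβ40 fibrils, and 8 and 9 of its 9 genes fell. In microglia cultures the astrocyte list held 290.4, 319 and 275 with Aβ42 fibrils and 271, 291 and 261 with Aβ40 fibrils, where 3 of 8 tested genes rose and 1 fell with either fibril. These are bulk libraries, so fewer cells of a type and less RNA per cell cannot be told apart, and the part of the markers in the results on matrix genes was not tested.

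**Figure D1:**
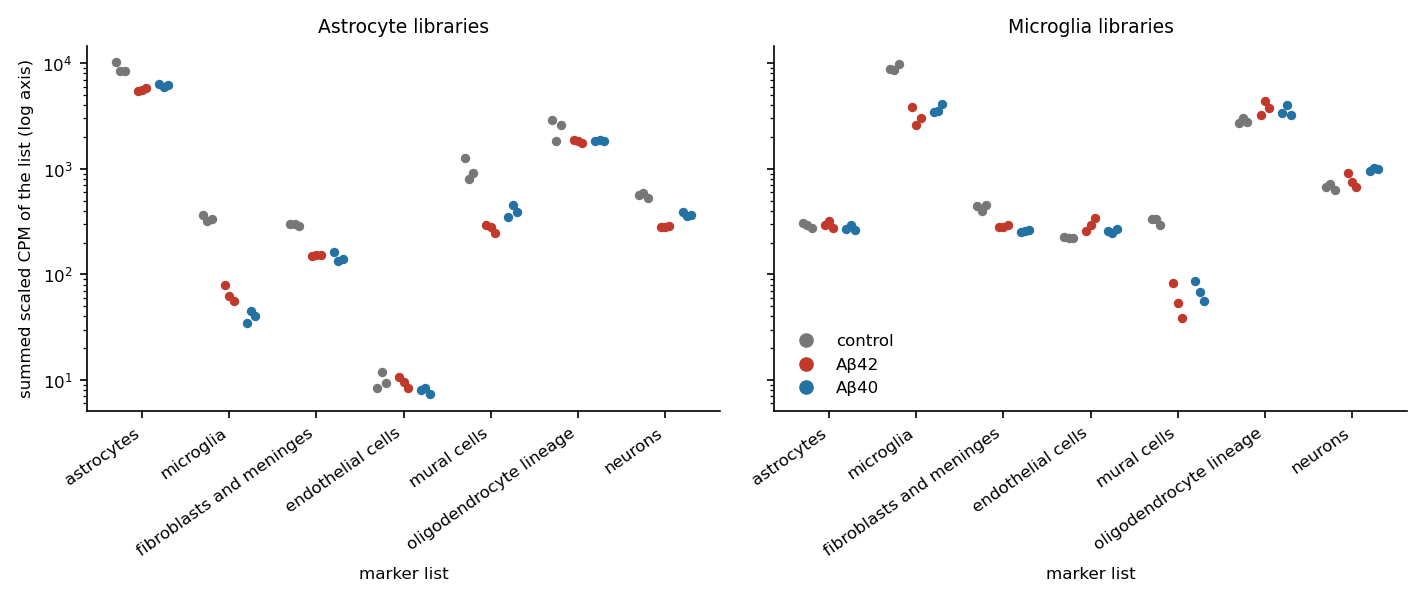
Summed scaled CPM (log axis) of 7 marker lists in each astrocyte library (left) and microglia library (right), 1 point per library, coloured by treatment. The microglia list in astrocyte cultures lay between 318 and 363 in the 3 untreated libraries and between 34.6 and 78.6 in the 6 treated ones.

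Untreated astrocytes and untreated microglia were compared first, to show which matrix genes each culture used before treatment. Most fibrillar and several other collagen chains were higher in astrocytes, together with Col4a1, the laminin chains Lama5, Lamb2 and Lamc1, thrombospondin 2, SPARC and tenascin C. A smaller group was higher in microglia, among them the laminin chain Lamb3, the short-chain collagen Col8a1, periostin, Col4a4, Lama4 and versican. The calls of Lama4 and versican were lost without single libraries and with library totals, and Col4a4 had at most 6 counts in an untreated library. Of 43 tested members, 26 were higher in astrocytes, where 34.5% of all 11581 tested genes were, and 7 were higher in microglia, where 34.2% of all genes were. Counts by role in the next paragraphs are of few genes and are to be read beside these shares. The median member was 0.86 higher in astrocytes on the log2 scale, against 0.0036 for all genes, and was also 0.86 with the genes at the detection limit set at their bound. Scaling by library totals in place of TMM moved the median of all genes by 0.28 and gave 29 and 5 members. Without untreated astrocyte replicate 2 the counts were 28 and 8. Each cell type has its own preparation, and the effect of the preparation cannot be told apart from that of the cell type.

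Among fibrillar collagens, 7 of 9 tested chains were higher in astrocytes and 0 in microglia. Col1a1, a chain of type I collagen, had 91.8, 68.9 and 75.7 CPM in the untreated astrocyte libraries and 49.6, 55.5 and 44.5 in the microglia libraries. These groups did not overlap, and the log2 difference was 0.66 ± 0.20 (adjusted p = 0.00754). Its partner chain Col1a2 was at 8.9, 6.74 and 3.71 in astrocytes and 0.524, 0.432 and 0.337 in microglia, a log2 difference of 3.70 ± 0.61 (adjusted p = 2.33e-05). Col3a1, the chain of type III collagen, had 74.6, 78.8 and 75.2 CPM in astrocytes and 20.04, 18.3 and 14.8 in microglia, so every astrocyte library was above every microglia library (log2 2.10 ± 0.25, adjusted p = 5e-07). The type V chains, which take part in setting fibril diameter, were higher in astrocytes, Col5a1 by 2.82 ± 0.25 and Col5a3 by 3.11 ± 0.25 on the log2 scale. Col5a3 held 259, 156 and 226 CPM in astrocytes beside 25.7, 27.4 and 21.4 in microglia, without overlap. Col5a2, the partner of Col5a1 in most type V collagen, was higher by 2.01 ± 0.18. Col11a1, a minor fibrillar chain that associates with type V chains, was higher in astrocytes by 0.83 ± 0.18 (adjusted p = 0.000551). Col27a1 had 32.7 ± 7.73 and 25.5 ± 5.13 CPM in astrocytes and microglia and did not pass the test (adjusted p = 0.246).

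Of 13 tested basement membrane genes, 5 were higher in astrocytes and 4 in microglia. Col4a1, a chain of the type IV network found in nearly all basement membranes, had 279.7, 213 and 305 CPM in astrocytes and 25.1, 29.4 and 20.1 in microglia. It was 10.7-fold higher in astrocytes (log2 3.43 ± 0.22, adjusted p = 5.28e-11). Lamb2, the β2 chain of vascular and synaptic laminins, had 462, 372 and 572 CPM in astrocytes and 104, 124 and 96.0 in microglia (log2 2.12 ± 0.15). Lamc1, the γ1 chain shared by most laminins, was higher in astrocytes by 1.23 ± 0.12, and Lama5 by 2.47 ± 0.26. The opposite held for Lamb3, a β3 laminin chain of epithelial basement membranes, with 1.05, 1.12 and 1.17 CPM in astrocytes and 12.3, 15.97 and 10.5 in microglia (log2 −3.48 ± 0.33). Col4a4 had 0 counts in the untreated astrocyte libraries and 6, 1 and 2 in microglia, too few for a fold, and Col4a3 had 2, 0 and 3 beside 2, 7 and 2. Nid2, which links laminin to type IV collagen, had 32.0 ± 1.58 and 28.5 ± 1.75 CPM and did not pass the test (adjusted p = 0.328), except with library totals (0.44). Calls of Lama4 and Col18a1 rested on single libraries: Lama4 was −0.38 on the log2 scale, and −0.27, −0.36 or −0.28 without call when astrocyte replicate 1, microglia replicate 1 or microglia replicate 2 was left out, and −0.10 with library totals. Col18a1, the source of endostatin, was at 0.63, and at 0.52, 0.53, 0.63 or 0.54 without call when astrocyte replicate 1 or 3 or microglia replicate 1 or 3 was left out.

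Of 10 tested collagen chains outside these groups, 7 were higher in astrocytes and 1 in microglia. Col6a2, a chain of the microfibrillar type VI collagen, had 819, 541 and 785 CPM in the untreated astrocyte libraries and 5.89, 8.63 and 5.4 in the microglia libraries. The 109-fold difference (log2 6.77 ± 0.25, adjusted p = 2.71e-14) was far beyond the spread of either group. Col8a1, which forms hexagonal networks in the walls of blood vessels, went the other way with 4.71, 4.04 and 5.47 CPM in astrocytes and 100.2, 148 and 92.9 in microglia (log2 −4.53 ± 0.22). Col16a1, a fibril-associated chain, was higher in astrocytes by 1.88 ± 0.44, although untreated astrocyte replicate 2, at 27.4 CPM, lay among the microglia libraries. Col14a1, which attaches to fibril surfaces, was higher in astrocytes by 0.63 ± 0.18 and Col7a1, of anchoring fibrils, by 2.89 ± 0.60, or 2.12 without astrocyte replicate 3. The difference of 1.46 ± 0.42 for Col9a2, of type IX collagen, lost its call without astrocyte replicate 3 (1.07). Col6a4 and Col23a1 were also called higher in astrocytes, with 4, 9 and 30 counts beside 0, 1 and 0 for Col6a4 and 6, 1 and 22 beside 2, 0 and 0 for Col23a1, too few in microglia for a fold.

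Of 7 glycoproteins, matricellular genes and Lox, 5 were higher in astrocytes and 1 in microglia. Thbs2, encoding thrombospondin 2, had 99.4, 121 and 132 CPM in astrocytes and 4.98, 9.5 and 6.75 in microglia, a 17.1-fold difference (log2 4.10 ± 0.18, adjusted p = 1.93e-13). Thbs1 had 229.6 ± 48.5 and 167 ± 31.7 CPM, and its libraries overlapped (adjusted p = 0.0813), though it passed as higher in astrocytes without astrocyte replicate 1 (0.68) and with library totals (0.74). Sparc, encoding a collagen-binding matricellular protein, was higher in astrocytes by 1.33 ± 0.12, and Tnc, encoding the adhesion-modulating tenascin C, by 1.09 ± 0.12. Postn, encoding periostin, had 1.57, 2.69 and 1.63 CPM in astrocytes and 4.45, 5.61 and 4.89 in microglia, without overlap (log2 −1.40 ± 0.29, adjusted p = 0.000295). Fn1, encoding fibronectin, was high in both cultures, at 1193 ± 95.9 and 924 ± 157 CPM. Its log2 difference of 0.37 lost its call without astrocyte replicate 3 (0.31) or microglia replicate 3 (0.24). For Lox, whose product cross-links collagen, the log2 difference of 1.12 lost its call without astrocyte replicate 3 (0.99) or microglia replicate 2 (0.90).

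The lecticans divided between the cell types. Ncan, encoding neurocan, had 10.2, 7.41 and 6.44 CPM in astrocytes and was called higher there, with 39, 33 and 99 counts beside 3, 1 and 0 in the microglia libraries, too few for a fold. Bcan, encoding brevican, had 204, 86.2 and 194 CPM in astrocytes and 83.8, 102 and 82.5 in microglia, where astrocyte replicate 2 lay among the microglia libraries. Its log2 difference of 0.86 ± 0.28 (adjusted p = 0.0109) was 0.70 and without call when astrocyte replicate 3 was left out. Vcan, encoding versican, had 214, 386 and 245 CPM in astrocytes and 387, 443 and 374 in microglia, and its difference of −0.51 ± 0.18 was without call when astrocyte replicate 1 (−0.29), astrocyte replicate 3 (−0.42) or microglia replicate 2 (−0.44) was left out, and with library totals (−0.23). Acan, encoding aggrecan, had 9.33 ± 3.18 and 12.3 ± 2.64 CPM (adjusted p = 0.122), and passed as higher in microglia without astrocyte replicate 2 (−0.61).

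**Figure D2:**
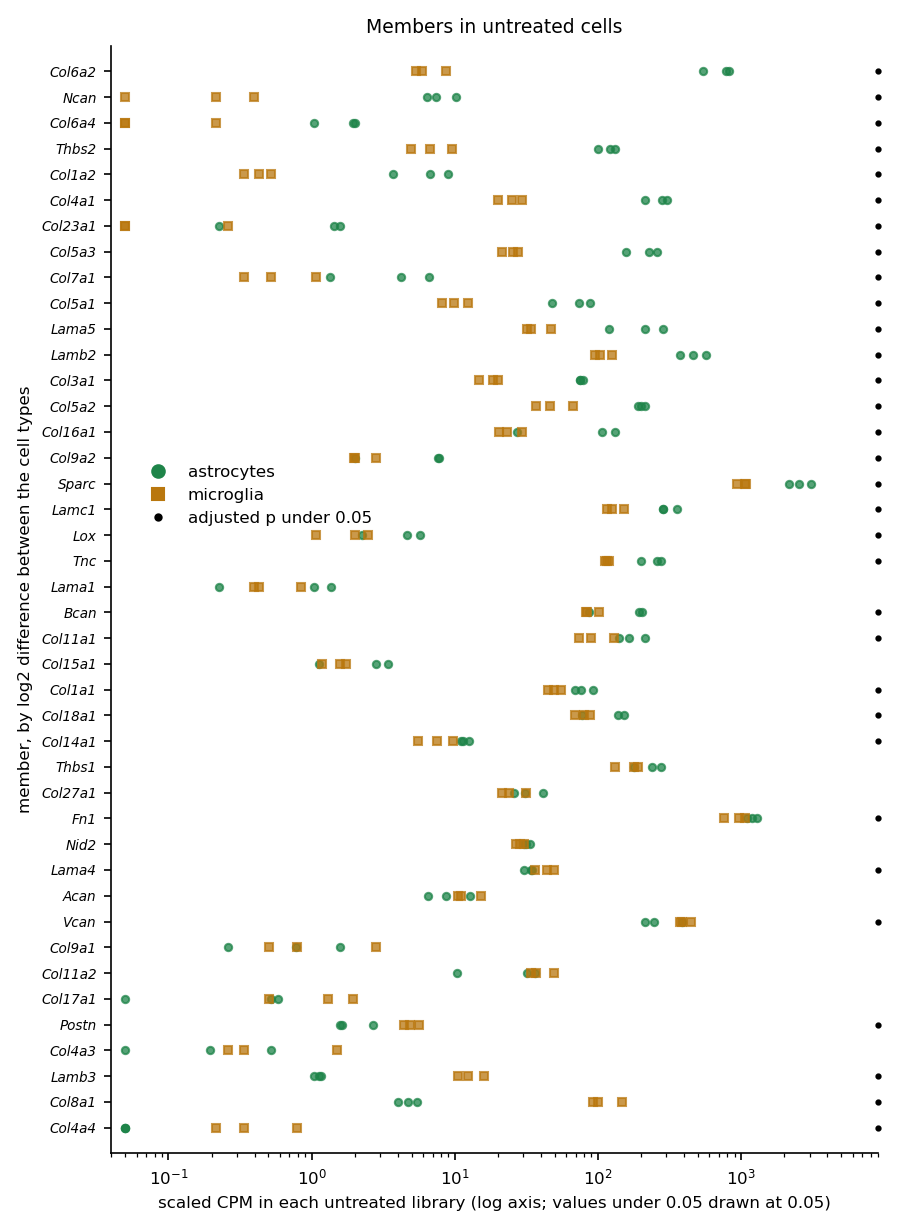
Scaled CPM (log axis) of the tested members reported here in each untreated astrocyte library (circles) and untreated microglia library (squares), ordered by the log2 difference between the cell types, with a dot at the right edge for an adjusted p under 0.05. Col6a2 at the top lies between 541 and 819 CPM in astrocytes and between 5.40 and 8.63 in microglia, and Col8a1, near the bottom, between 4.04 and 5.47 and between 92.9 and 148.

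In astrocytes some basement membrane genes and Col14a1 rose with the fibrils, and 3 of 9 tested fibrillar collagen chains fell with either fibril. Col4a1, Lamc1, Lama1 and Nid2 of the basement membrane rose with either fibril, Col14a1 rose 6.89-fold and 6.95-fold, and thrombospondin 2, tenascin C and periostin rose as well. Col11a1, Col1a1 and Col3a1 fell with either fibril, as did Lox and versican. With Aβ42 fibrils 9 of 41 tested members rose, where 16.5% of all 11690 tested genes did, and 15 fell, where 20.4% of all genes did. With Aβ40 fibrils 10 rose (14.9% of all genes) and 11 fell (18.4%). The same shares apply to the counts by role below, which are of few genes. The median member was at −0.64 on the log2 scale with Aβ42 and −0.35 with Aβ40 fibrils, against −0.0047 and 0.0017 for all genes. Only 1 member with Aβ42 (Col14a1) and 2 with Aβ40 fibrils (Col14a1 and Lama1) rose 5-fold or more and 0 fell so far, where 6.27% and 5.42% of all genes passed that fold in either direction. The members that fell depended on single libraries. Leaving out untreated replicate 2 added fibrillar chains, Col5a3 and Col11a2 with either fibril and Col5a1 and Col27a1 with Aβ42 fibrils. Without untreated replicate 2 the counts with Aβ42 fibrils were 9 and 21 and with Aβ40 fibrils 10 and 17, without Aβ42 replicate 2 there were 9 that fell, and without untreated replicate 3 or Aβ40 replicate 3 there were 7 that fell with Aβ40. Both comparisons share the untreated libraries.

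Of 11 tested basement membrane genes, 5 rose and 3 fell with Aβ42 fibrils, and 5 rose and 1 fell with Aβ40 fibrils. Col4a1, whose window is shown above with 2 GC and 2 CCAAT boxes, had 279.7, 213 and 305 CPM in the untreated libraries, 734, 693 and 569.8 with Aβ42 and 523, 697 and 643 with Aβ40 fibrils. Every treated library lay above every untreated one, with log2 fold changes of 1.30 ± 0.18 (adjusted p = 0.000163) and 1.21 ± 0.18 (adjusted p = 0.000311). Lamc1, the γ1 chain of most laminins, had 286, 355 and 286 CPM untreated, 639.7, 657 and 653 with Aβ42 and 615, 582 and 581 with Aβ40 fibrils. Its treated libraries were close together and all above the untreated ones (log2 1.05 ± 0.11 and 0.92 ± 0.11, adjusted p = 3.16e-05 and 9.19e-05). Lama1, the α1 chain of early embryonic basement membranes, was near the detection limit untreated, at 1.05, 0.225 and 1.37 CPM, and had 5.93, 5.65 and 3.93 with Aβ42 and 7.88, 8.05 and 7.32 with Aβ40 fibrils. The groups did not overlap, and its log2 changes of 2.28 ± 0.35 and 2.85 ± 0.34 were 3.08 and 3.64 without untreated replicate 3. Nid2 rose from 32.0 ± 1.58 to 51.1 ± 3.11 and 48.3 ± 1.33 CPM (log2 0.66 ± 0.12 and 0.58 ± 0.12).

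Other laminin chains of astrocytes moved down or did not pass the test. Lama4, the α4 chain of vascular laminin, fell from 33.0 ± 2.04 to 19.9 ± 0.36 CPM with Aβ42 and 20.3 ± 2.08 with Aβ40 fibrils (log2 −0.75 ± 0.13 and −0.72 ± 0.13, adjusted p = 0.00104 and 0.00152). Lama5 had 214, 119 and 286 CPM untreated, 341, 292 and 236 with Aβ42 and 279, 375 and 333 with Aβ40 fibrils. The treated libraries overlapped with the untreated ones for either fibril, and its log2 values of 0.46 and 0.65 did not pass (adjusted p = 0.222 and 0.0958), but did so without untreated replicate 3 (0.79 and 0.97). Lamb2 had 469 ± 100.1, 358 ± 19.5 and 439 ± 15.1 CPM, with log2 values of −0.42 and −0.11 (adjusted p = 0.0549 and 0.615), the first of which passed without untreated replicate 2 (−0.55), and with library totals (−0.47) or DESeq2's Wald test (−0.41). Col18a1, a collagen with heparan sulfate chains in basement membranes, fell with Aβ42 fibrils by −0.84 ± 0.27 (adjusted p = 0.0288) and was at −0.74 with Aβ40 fibrils (adjusted p = 0.053). The first call was lost without untreated replicate 1 (−0.66) or 3 (−0.73) or Aβ42 replicate 2 (−0.84) or 3 (−0.72), and the second value passed without untreated replicate 2 (−0.97) or Aβ40 replicate 2 (−0.91), and with DESeq2 size factors (−0.74), library totals (−0.78), no filter (−0.72) or DESeq2's Wald test (−0.74). Col15a1 fell with Aβ42 fibrils by −1.29 ± 0.43 and lost its call without untreated replicate 1 (−1.13) or 3 (−1.07) or Aβ42 replicate 2 (−1.24) or 3 (−1.02).

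Of 9 tested fibrillar collagen chains, 3 fell and 0 rose with either fibril. That is 33.3% called with either fibril, where 37.0% and 33.3% of all genes were called in either direction. With library totals 5 fell with Aβ42 fibrils, and the count also depended on untreated replicate 2. Col11a1 had 139, 213 and 164 CPM in the untreated libraries, 65.8, 59.6 and 62.1 with Aβ42 and 67.7, 74.6 and 75.2 with Aβ40 fibrils. All 6 treated libraries were under all untreated ones, with log2 changes of −1.49 ± 0.16 (adjusted p = 2.82e-05) and −1.26 ± 0.16 (adjusted p = 9.87e-05). Col3a1 had 74.6, 78.8 and 75.2 CPM untreated, 34.3, 36.8 and 29.7 with Aβ42 and 53.9, 56.3 and 47.0 with Aβ40 fibrils, 3 levels without overlap (log2 −1.20 ± 0.14 and −0.56 ± 0.13). Col1a1 had 91.8, 68.9 and 75.7 CPM untreated, 38.5, 35.2 and 26.7 with Aβ42 and 52.0, 52.5 and 44.6 with Aβ40 fibrils. It fell by −1.25 ± 0.17 (adjusted p = 0.000197) and −0.68 ± 0.17 (adjusted p = 0.0101) on the log2 scale, and the second call was lost without Aβ40 replicate 3 (−0.61). The partner chain Col1a2 had 6.45 ± 2.61, 2.56 ± 1.21 and 4.2 ± 1.31 CPM and did not pass (log2 −1.15 and −0.53, adjusted p = 0.0561 and 0.351), the first of which did so without untreated replicate 3 (−1.53) or Aβ42 replicate 1 (−1.60), and with library totals (−1.21), no filter (−1.13) or DESeq2's Wald test (−1.27). Neither did Col5a1, with log2 values of −0.50 and −0.22, nor Col27a1, with −0.73 and −0.42. With Aβ42 fibrils Col5a1 passed without untreated replicate 2 (−0.71), and Col27a1 without that library (−0.87) or without Aβ42 replicate 1 (−1.07). Col5a3 (log2 −0.68 with Aβ42 and −0.43 with Aβ40 fibrils) and Col11a2 (−0.93 and −0.55) did not pass either. Both passed as lower without untreated replicate 2, Col5a3 at −0.86 and −0.60 and Col11a2 at −1.28 and −0.90. With Aβ42 fibrils Col5a3 also passed without Aβ42 replicate 1 (−0.88), and with library totals (−0.73) or DESeq2's Wald test (−0.68). Col2a1 was not tested, at 1 to 10 counts in an astrocyte library.

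Col1a1 and Col3a1 are also made by fibroblasts and mural cells, so markers of these cells are given beside them. The study peeled off the meninges when the cortex was dissected, and how completely was not tested here. The 12 fibroblast and meningeal markers, of which Pdgfra, also a marker of oligodendrocyte precursors, was the most abundant at 200.3 ± 4.25 CPM untreated, summed to 301, 300.3 and 284 CPM in the untreated astrocyte libraries, 148, 153 and 152 with Aβ42 and 164, 135 and 139.9 with Aβ40 fibrils, and of 9 tested 1 rose and 6 fell with either fibril. Slc22a6 and Slc6a13, markers of leptomeningeal cells, had at most 3 counts in any astrocyte library, while Fbln1 of the same list was at 51.5 ± 3.34 CPM untreated. The 8 mural cell markers, led by Tagln, summed to 1264, 795 and 919, 293, 284 and 246 and 346, 459 and 391.7 CPM, and of 5 tested 1 (Pdgfrb) rose and 3 fell with either fibril. Rgs5, a pericyte marker, had at most 3 counts in a library, while Pdgfrb was at 51.3 ± 10.9 CPM untreated, 133 ± 12.4 with Aβ42 and 126 ± 16.1 with Aβ40 fibrils. Endothelial markers, led by Flt1 and with Cldn5 at 0, summed to 8.37, 11.9 and 9.3, 10.8, 9.48 and 8.44 and 7.98, 8.4 and 7.32 CPM, with 1 of 5 higher and 1 lower with Aβ42 and 0 and 1 with Aβ40 fibrils. The part of these cells in the levels of Col1a1 and Col3a1 was not tested.

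Of 10 tested collagen chains outside the fibrillar and basement membrane groups, 1 rose and 4 fell with Aβ42 fibrils, and 2 rose and 2 fell with Aβ40 fibrils. Col14a1, a fibril-associated collagen that binds decorin, had 10.99, 12.6 and 11.3 CPM untreated, 83.0, 80.0 and 81.0 with Aβ42 and 82.6, 82.1 and 80.4 with Aβ40 fibrils. The 6 treated libraries lay within a narrow range well above the untreated level, with log2 changes of 2.78 ± 0.13 (adjusted p = 4.45e-08) and 2.80 ± 0.13 (adjusted p = 5.04e-08). Col8a1 fell from 4.74 ± 0.712 to 1.76 ± 0.234 and 2.52 ± 0.475 CPM (log2 −1.50 ± 0.25 and −0.95 ± 0.23), and the call with Aβ40 fibrils was lost without untreated replicate 3 (−0.77). Col16a1 had 107, 27.4 and 131 CPM untreated, 60.9, 39.6 and 29.3 with Aβ42 and 35.5, 68.5 and 53.4 with Aβ40 fibrils. Its untreated replicate 2 was the lowest of the 9 libraries, the groups overlapped, and the log2 values of −1.05 and −0.77 did not pass (adjusted p = 0.113 and 0.244). Without that library both passed, at −1.47 and −1.19. Col9a2 fell from 5.81 ± 3.28 to 1.27 ± 0.482 and 1.76 ± 0.735 CPM (log2 −2.22 ± 0.48 and −1.74 ± 0.44), the second call being lost without untreated replicate 3 (−1.33). Col6a2 fell with Aβ42 fibrils by −0.66 ± 0.19, a call lost without untreated replicate 1 (−0.55) or Aβ42 replicate 2 (−0.63) or 3 (−0.59). Col7a1 fell with Aβ42 fibrils by −1.40 ± 0.45, a call lost without untreated replicate 1 (−1.44) or 3 (−0.62) or Aβ42 replicate 2 (−1.27) or 3 (−1.32). With Aβ40 fibrils Col6a2 (−0.33) and Col7a1 (−0.88) did not pass, but both did so as lower without untreated replicate 2 (−0.49 and −1.22). Col17a1, a transmembrane collagen of epithelial cells, rose with Aβ40 fibrils by 2.23 ± 0.65 from 0.37 ± 0.322 CPM, a call lost without untreated replicate 3, which leaves 2 and 0 untreated counts, too few for a fold, or Aβ40 replicate 3 (2.06).

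Of 7 glycoproteins, matricellular genes and Lox, 3 rose and 3 fell with Aβ42 fibrils, and 3 rose and 1 fell with Aβ40 fibrils. Thbs2 had 99.4, 121 and 132 CPM untreated, 247, 254 and 275 with Aβ42 and 273, 267 and 275 with Aβ40 fibrils. It rose without overlap, by 1.11 ± 0.13 (adjusted p = 4.48e-05) and 1.19 ± 0.13 (adjusted p = 2.94e-05). Thbs1, its close relative, had 178, 237 and 274 CPM untreated, 109.7, 113 and 104 with Aβ42 and 187, 198 and 190.4 with Aβ40 fibrils. The Aβ42 libraries lay under all others and the Aβ40 libraries within the untreated range, with log2 values of −1.10 ± 0.16 (adjusted p = 0.000224) and −0.28 ± 0.15 (adjusted p = 0.194), the second of which passed without untreated replicate 1 (−0.43). Tnc had 199, 259.6 and 276 CPM untreated, 429, 459 and 475 with Aβ42 and 389, 379 and 416 with Aβ40 fibrils, and rose by 0.87 ± 0.14 and 0.67 ± 0.14. Postn rose from 1.96 ± 0.634 to 5.02 ± 0.837 and 4.002 ± 0.54 CPM (log2 1.38 ± 0.27 and 1.08 ± 0.27), and the call with Aβ40 fibrils was lost without untreated replicate 3 (0.89). Lox fell from 4.21 ± 1.79 to 1.72 ± 0.352 and 1.3 ± 0.227 CPM (log2 −1.29 ± 0.32 and −1.71 ± 0.32, adjusted p = 0.00833 and 0.00172). Sparc fell with Aβ42 fibrils by −0.47 ± 0.13, a call lost without Aβ42 replicate 1 (−0.48), 2 (−0.49) or 3 (−0.44), and was at −0.35 with Aβ40 fibrils (adjusted p = 0.0689), where it passed without untreated replicate 2 (−0.46), and with library totals (−0.39) or DESeq2's Wald test (−0.35). Fn1 stayed between 1103 and 1294 CPM in all 9 astrocyte libraries, with log2 values of 0.06 ± 0.10 and −0.09 ± 0.10 that did not pass the test.

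The 4 lecticans, which link hyaluronan to tenascins and cell surfaces, had log2 values under 0 with either fibril, and 2 fell with Aβ42 and 4 with Aβ40 fibrils. Bcan had 204, 86.2 and 194 CPM untreated, 83.4, 68.8 and 54.2 with Aβ42 and 63.7, 91.5 and 79.5 with Aβ40 fibrils. Untreated replicate 2 lay near the treated libraries and the other two above all of them, and the log2 changes were −1.25 ± 0.30 (adjusted p = 0.00703) and −1.06 ± 0.30 (adjusted p = 0.0179). Vcan fell by −0.64 ± 0.20 and −0.65 ± 0.20 from 282 ± 91.8 CPM. Ncan was at 8.02 ± 1.95, 4.28 ± 1.82 and 3.28 ± 1.44 CPM, with log2 values of −0.83 (adjusted p = 0.12) and −1.30 (adjusted p = 0.0242). Acan was at 9.33 ± 3.18, 6.61 ± 0.22 and 6.02 ± 0.529 CPM, with −0.51 (adjusted p = 0.0939) and −0.64 (adjusted p = 0.0432).

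Most lectican calls in astrocytes rested on single libraries. With Aβ42 fibrils, Vcan lost its call without Aβ42 replicate 1 (−0.58), 2 (−0.64) or 3 (−0.70). With Aβ40 fibrils, Vcan lost it without Aβ40 replicate 2 (−0.57) or 3 (−0.62), Ncan without untreated replicate 1 (−1.12) or Aβ40 replicate 2 (−0.94), and Bcan without untreated replicate 1 (−0.87) or 3 (−0.89) or Aβ40 replicate 1 (−0.92) or 3 (−1.07). Acan lost its call without untreated replicate 2 (−0.42) or 3 (−0.70) or any Aβ40 replicate (−0.61, −0.72 and −0.58), and with no filter on low counts (−0.62). With Aβ42 fibrils, Ncan passed without Aβ42 replicate 1 (−1.27) and Acan without untreated replicate 1 (−0.66). Brevican and versican are also made by oligodendrocyte precursors, whose lineage markers are given beside them. The 9 markers of that lineage, led by Cnp, summed to 2924, 1826 and 2587 CPM untreated, 1889, 1850.2 and 1755 with Aβ42 and 1829, 1873 and 1849 with Aβ40 fibrils, with 0 that rose and 4 that fell with either fibril. Cspg4, a precursor marker, was at 43.1 ± 14.2 CPM untreated, 24.4 ± 3.21 with Aβ42 and 25.3 ± 3.06 with Aβ40 fibrils. The 7 neuronal markers, led by Stmn2, summed to 567, 589 and 531, 281, 282 and 289 and 387, 361 and 367 CPM, with 5 and 6 that fell. Their part in the fall of the lecticans was not tested.

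**Figure D3:**
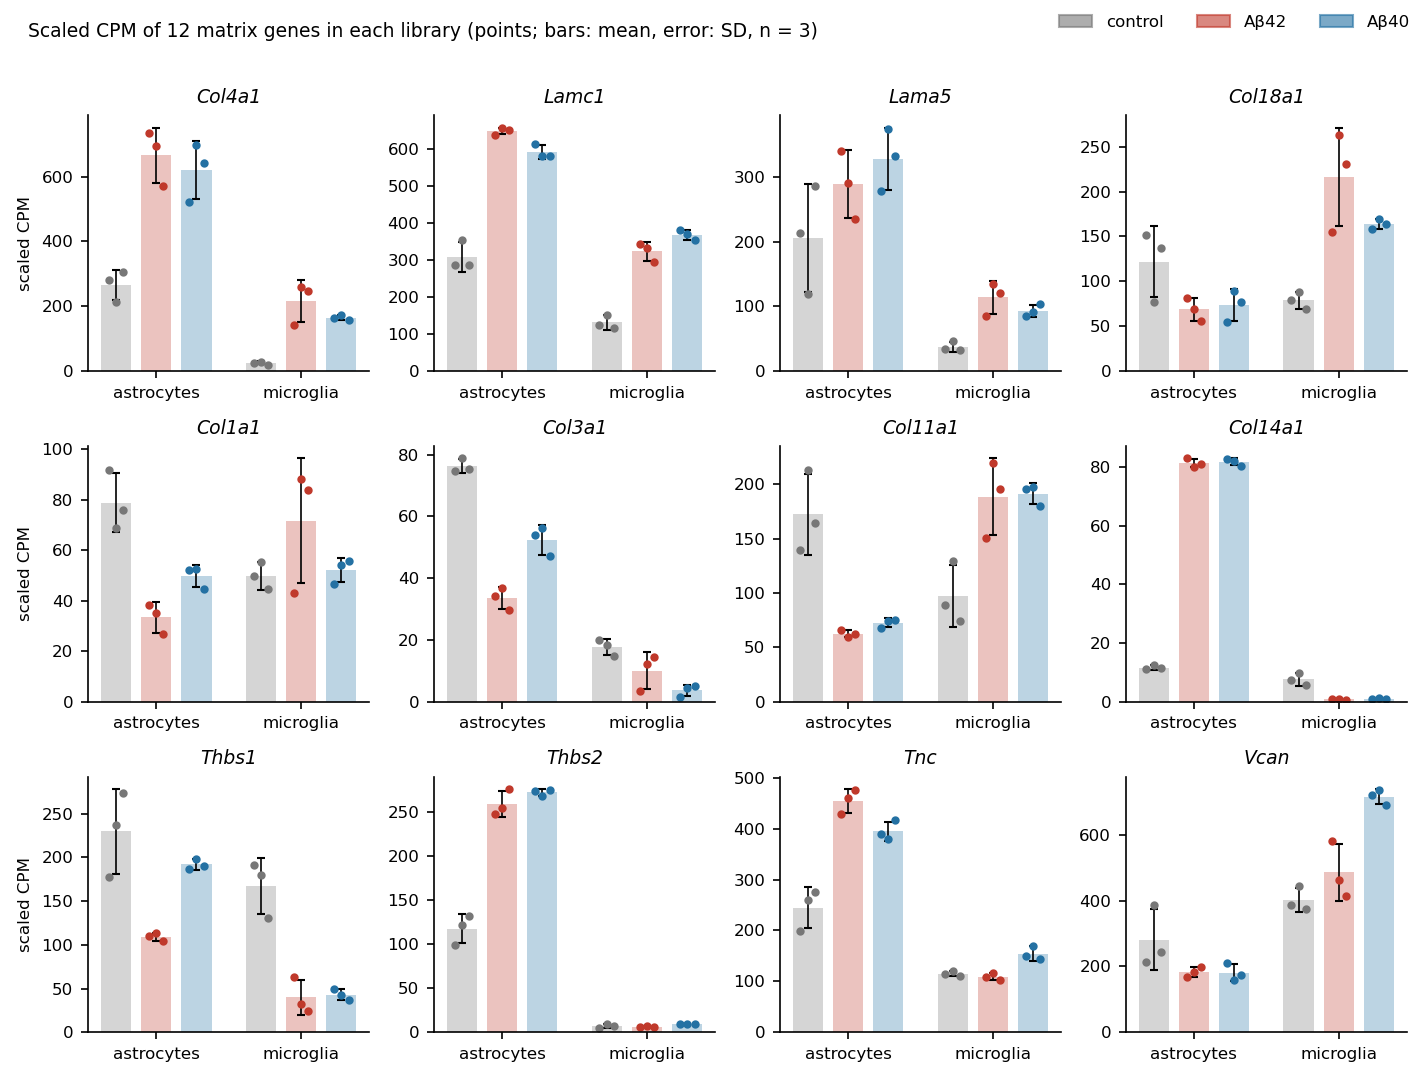
Scaled CPM of 12 matrix genes in astrocyte and microglia libraries (points), with the mean (bars) and SD (error bars) of the 3 libraries of each group and 1 y axis per gene. Col14a1 lies between 80.0 and 83.0 CPM in the 6 treated astrocyte libraries and at 10.99 to 12.6 in the untreated ones, while in microglia it goes from between 5.56 and 9.71 to at most 1.25.

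In microglia the clearest pattern was a rise of basement membrane genes. Of 12 tested, 10 rose with Aβ42 and 9 with Aβ40 fibrils, and 0 fell, among them Col4a1 by 8.7-fold and 6.65-fold, Col4a3, Col4a4, Col18a1 and the laminin chains Lama5, Lamb3 and Lamc1. Col14a1 and Thbs1 fell with either fibril, as did Acan and Sparc, and Col11a1 rose. With Aβ42 fibrils 14 of 34 tested members rose, where 27.1% of all 10837 tested genes did, and 4 fell, where 26.6% did. With Aβ40 fibrils 13 rose (19.6% of all genes) and 6 fell (21.4%). These shares also apply to the counts by role below, which are of few genes. The median member was at 0.45 and 0.24 on the log2 scale, against 0.0096 and 0.0054 for all genes. At 5-fold or more, Col4a1, Col4a3 and Col4a4 rose with either fibril, 1 member (Col14a1) fell with Aβ42 and 2 (Col14a1 and Col3a1) fell with Aβ40 fibrils, where 6.26% and 5.83% of all genes passed that fold in either direction. Without Aβ42 replicate 1, the shallowest of the 3 Aβ42 libraries, 19 rose and 6 fell with Aβ42 fibrils. The share of the members that fell was under that of all genes with Aβ42 fibrils and near it with Aβ40 fibrils. A share near the background is not a result about the members. Both comparisons share the untreated libraries.

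Col4a1 had 25.1, 29.4 and 20.1 CPM in the untreated microglia libraries, 141, 260.2 and 247 with Aβ42 and 164, 172 and 157 with Aβ40 fibrils. The lowest treated library was several times the highest untreated one, and the log2 changes were 3.12 ± 0.21 (adjusted p = 1.28e-07) and 2.73 ± 0.21 (adjusted p = 5.31e-07). Col4a3 and Col4a4, chains of the type IV network of kidney and lung basement membranes, rose from near the detection limit. Col4a3 had 0.262, 1.51 and 0.337 CPM untreated, 2.18, 6.93 and 5.33 with Aβ42 and 5.92, 7.25 and 10.1 with Aβ40 fibrils, and Col4a4 0.446 ± 0.3, 3.06 ± 0.771 and 2.85 ± 1.02. The log2 changes of Col4a3 were 3.15 ± 0.51 and 3.57 ± 0.55, and those of Col4a4 2.69 ± 0.43 and 2.47 ± 0.53. Their size rests on single untreated libraries, since Col4a3 without replicate 2 has 2 and 2 counts left and Col4a4 without replicate 1 has 1 and 2, too few for a fold, although both passed the test there. These genes start near each other on opposite strands and point away from each other. The 88 bases that their windows share lie upstream of both starts. Whether the counting used the strand is not stated, and its part in these counts was not tested. Col18a1 had 79.2, 88.1 and 69.1 CPM untreated, 155, 263 and 230.4 with Aβ42 and 159, 169 and 164 with Aβ40 fibrils. It rose without overlap by 1.45 ± 0.16 and 1.06 ± 0.16 (adjusted p = 1.1e-05 and 0.00021). Col15a1, a related collagen, rose with Aβ42 fibrils from 1.49 ± 0.282 to 5.34 ± 0.624 CPM (log2 1.77 ± 0.33).

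Several laminin chains of microglia also rose. Lamc1 had 125, 153 and 116 CPM untreated, 344, 334 and 295 with Aβ42 and 382, 371 and 355 with Aβ40 fibrils, with log2 changes of 1.29 ± 0.12 (adjusted p = 2.72e-06) and 1.49 ± 0.12 (adjusted p = 9.71e-07). Lama5, the α5 chain of mature vascular laminin, had 33.9, 46.6 and 31.9 CPM untreated, 85.6, 135 and 121 with Aβ42 and 85.8, 90.7 and 103 with Aβ40 fibrils (log2 1.62 ± 0.18 and 1.32 ± 0.18). Neither gene had a treated library in the untreated range. Lamb3 rose from 12.9 ± 2.81 to 43.6 ± 11.9 and 38.4 ± 4.82 CPM (log2 1.80 ± 0.20 and 1.60 ± 0.21). Nid2 rose by 0.63 ± 0.15 and 0.57 ± 0.16 from 28.5 ± 1.75 CPM, and the call with Aβ40 fibrils was lost without Aβ40 replicate 2 (0.38). Lamb2 and Lama4 did not pass with either fibril, with log2 values of 0.06 and −0.23 for Lamb2 and −0.25 and −0.16 for Lama4. Lama1 was not tested in microglia, at 0 to 5 counts in a library.

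Of 8 tested fibrillar collagen chains, 3 rose with Aβ42 fibrils and 1 rose and 1 fell with Aβ40 fibrils. These are 37.5% and 25% called, under the 53.7% and 41.0% of all genes called in either direction. Col11a1 had 89.1, 129 and 74.0 CPM untreated, 150.2, 219.7 and 196 with Aβ42 and 196, 198 and 180.1 with Aβ40 fibrils. All treated libraries were above the untreated ones (log2 0.95 ± 0.18 and 0.98 ± 0.18, adjusted p = 0.000921 and 0.00101). Col3a1 had 20.04, 18.3 and 14.8 CPM untreated, 3.49, 12.2 and 14.6 with Aβ42 and 1.61, 4.5 and 5.06 with Aβ40 fibrils. It fell with Aβ40 fibrils by −2.33 ± 0.42 (adjusted p = 0.000781), while its log2 value with Aβ42 fibrils was −0.63 ± 0.29 (adjusted p = 0.09) and passed without Aβ42 replicate 1 (−0.46). Col1a1 was at 49.9 ± 5.48, 71.7 ± 24.7 and 52.1 ± 4.71 CPM, with log2 values of 0.55 (adjusted p = 0.0325) and 0.06 (adjusted p = 0.845), and its call with Aβ42 fibrils was lost without untreated replicate 1 (0.56) or 3 (0.49) or Aβ42 replicate 2 (0.40) or 3 (0.46). Col5a1 rose with Aβ42 fibrils by 0.59, a call lost without untreated replicate 1 (0.58) or 3 (0.47) or Aβ42 replicate 2 (0.46) or 3 (0.60), and was at 0.21 with Aβ40 fibrils (adjusted p = 0.504). Col27a1 did not pass with either fibril (log2 0.11 and 0.05). With Aβ42 fibrils Col5a2 (log2 0.41), Col5a3 (0.28) and Col11a2 (0.33) did not pass, but rose without Aβ42 replicate 1 (0.52, 0.39 and 0.50). Without untreated replicate 2, Col5a2 rose with Aβ42 (0.67) and Aβ40 fibrils (0.63). Col1a2 was not tested, at 0 to 28 counts in a microglia library.

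Of 5 tested collagen chains outside these groups, 1 rose and 1 fell with Aβ42 fibrils, and 1 rose and 2 fell with Aβ40 fibrils. These are 40% and 60% called, where 53.7% and 41.0% of all genes were, and 5 genes are too few for a share. Col14a1 had 7.47, 9.71 and 5.56 CPM in the untreated libraries, 0.873, 0.983 and 0.52 with Aβ42 and 0.807, 1.25 and 1.01 with Aβ40 fibrils. Every treated library was far under the untreated ones, with log2 changes of −3.26 ± 0.31 (adjusted p = 2.83e-06) and −2.84 ± 0.40 (adjusted p = 0.000108). Col16a1 had 23.3, 29.6 and 20.2 CPM untreated, 37.1, 93.6 and 96.9 with Aβ42 and 40.3, 55.0 and 55.1 with Aβ40 fibrils, all treated libraries being above the untreated ones. Its log2 changes were 1.68 ± 0.28 and 1.04 ± 0.29, and the call with Aβ40 fibrils was lost without untreated replicate 3 (0.95) or Aβ40 replicate 2 (0.96). Col8a1 was at 114 ± 30.0, 84.2 ± 14.1 and 73.4 ± 6.97 CPM, and fell with Aβ40 fibrils by −0.62, a call lost without untreated replicate 2 (−0.38) or Aβ40 replicate 3 (−0.57). With Aβ42 fibrils it was at −0.43 (adjusted p = 0.051), and passed without untreated replicate 3 (−0.54) or Aβ42 replicate 1 (−0.33) or 2 (−0.53), and with no filter or DESeq2's Wald test (both −0.43).

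Among 6 tested glycoproteins and matricellular genes, 2 fell with Aβ42 fibrils, and 1 rose and 2 fell with Aβ40 fibrils. Thbs1, encoding a thrombospondin that microglia and macrophages also secrete, had 191, 179.6 and 131 CPM untreated, 62.9, 32.9 and 24.6 with Aβ42 and 49.5, 42.5 and 36.9 with Aβ40 fibrils. Its treated libraries were all under the untreated ones (log2 −2.19 ± 0.28 and −1.94 ± 0.29, adjusted p = 4.17e-05 and 0.000159). Sparc had 929, 1073 and 1065 CPM untreated, 738, 713 and 627 with Aβ42 and 690.5, 693 and 666 with Aβ40 fibrils, and fell without overlap by −0.57 ± 0.11 and −0.58 ± 0.11. Tnc rose with Aβ40 fibrils from 115 ± 4.17 to 155 ± 14.0 CPM (log2 0.43 ± 0.10, adjusted p = 0.0053) and was at −0.09 with Aβ42 fibrils (adjusted p = 0.479). Fn1 was at 924 ± 157, 919 ± 187 and 1061 ± 26.2 CPM and did not pass (log2 −0.02 and 0.20). Neither did Postn, with 0.10 and 0.17, nor Thbs2, with −0.05 and 0.42, the second of which passed without untreated replicate 2 (0.67). Lox was not tested in microglia, at 0 to 38 counts in a library.

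Of 3 tested lecticans, 1 fell with Aβ42 fibrils, and 1 rose and 1 fell with Aβ40 fibrils. Acan had 11.1, 15.3 and 10.5 CPM untreated, 2.18, 4.28 and 3.84 with Aβ42 and 4.03, 5.25 and 4.05 with Aβ40 fibrils, and fell without overlap by −1.68 ± 0.21 (adjusted p = 3.69e-05) and −1.42 ± 0.26 (adjusted p = 0.00074). Vcan had 387, 443 and 374 CPM untreated, 582, 462 and 414 with Aβ42 and 720.0, 735 and 689.9 with Aβ40 fibrils. The Aβ40 libraries were above all others, and the log2 values were 0.26 ± 0.13 (adjusted p = 0.118) and 0.84 ± 0.14 (adjusted p = 0.000328), the first of which passed without Aβ42 replicate 3 (0.38). Bcan was at 89.5 ± 11.1, 127 ± 46.6 and 97.2 ± 12.7 CPM and did not pass (log2 0.52 and 0.13, adjusted p = 0.0554 and 0.676), though with Aβ42 fibrils it did so without Aβ42 replicate 1 (0.74), and with DESeq2 size factors (0.52) or no filter (0.51). Ncan was not tested, at 0 to 8 counts in a microglia library.

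Markers of other cells also moved in the microglia cultures. The 9 oligodendrocyte lineage markers, led by Mbp, summed to 2728, 3048 and 2776 CPM untreated, 3223, 4390.5 and 3797 with Aβ42 and 3409, 4029 and 3237 with Aβ40 fibrils, and 6 and 5 of the 9 rose and 0 fell. Cspg4 went from 9.04 ± 2.18 CPM to 42.5 ± 11.1 and 24.9 ± 4.98. Other markers of the list moved little, with Mbp at 979 ± 10.8, 1027 ± 157 and 1043 ± 132 CPM and Mag at 118 ± 8.5, 108 ± 30.2 and 102 ± 11.7. Col11a1, Col16a1, Col18a1, Vcan and Bcan, of which Bcan did not pass with either fibril, are also made by cells of that lineage. The fibroblast and meningeal list, led by Islr and with Slc22a6 at 0, summed to 445, 397 and 450.4, 279, 283 and 296 and 252, 258 and 260.5 CPM, where 6 of 9 tested genes rose with either fibril and 2 and 3 fell. The mural list, led by Tagln and with Rgs5 and Kcnj8 at 0, summed to 333, 336 and 291, 82.1, 53.7 and 39.0 and 87.1, 68.2 and 56.1 CPM, and 4 of 4 tested fell. The endothelial list, led by Esam and with Cldn5 at 0, summed to 228, 223 and 221, 256, 296 and 341 and 258, 245 and 270.1 CPM, with 2 of 6 that rose and 3 and 2 that fell. The neuronal list, led by Dcx, summed to 679, 713 and 631, 903, 755 and 673 and 961, 1007 and 990.3 CPM, with 2 and 3 of 7 that rose. The part of these cells in the rise of the basement membrane and collagen genes was not tested.

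**Figure D4:**
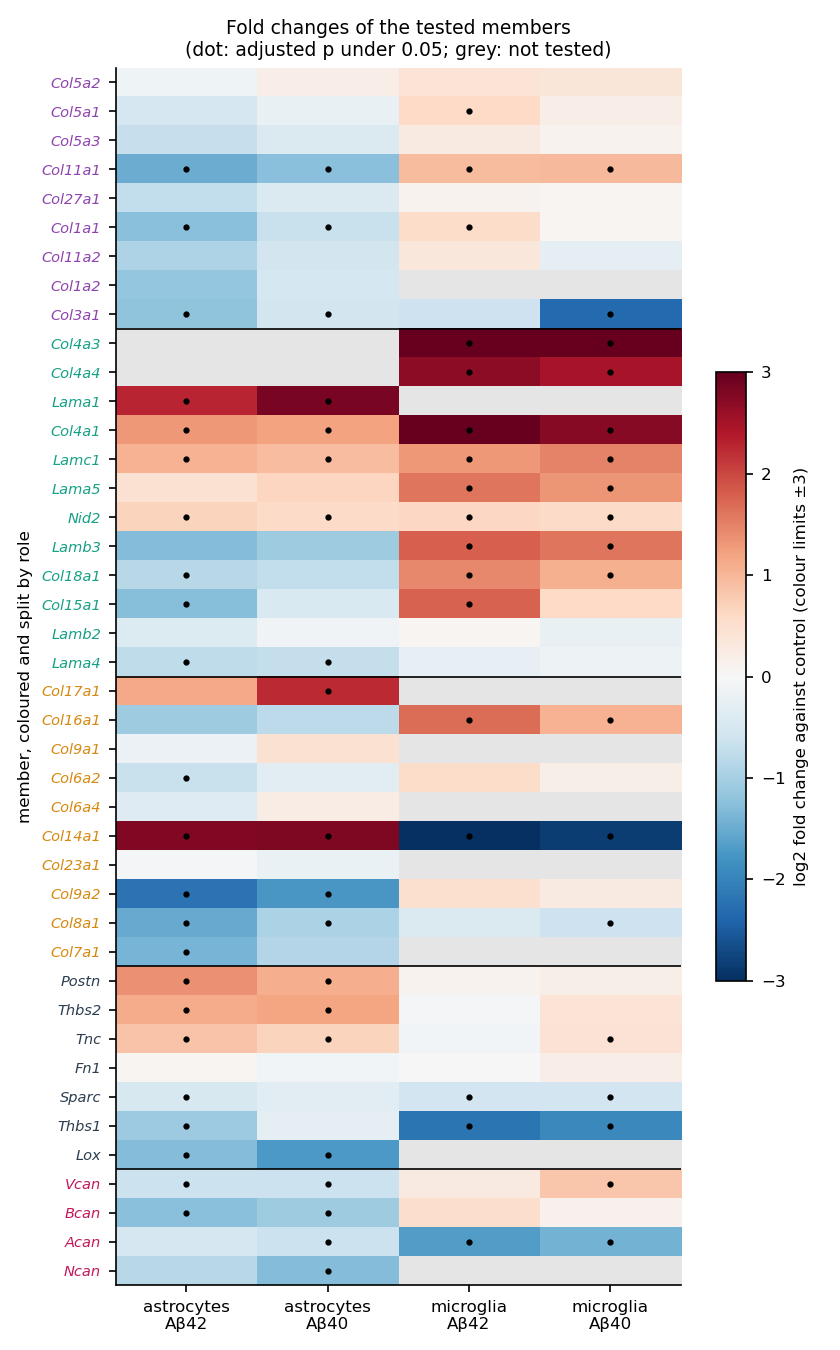
Log2 fold change against untreated cells (colour, limits at 3 in either direction) of the members reported here that were tested in at least 1 cell type, for each fibril in astrocytes and microglia, ordered within each role by the mean, with a dot for an adjusted p under 0.05 and grey where a gene was not tested. Col4a1, Lamc1 and Nid2 of the basement membrane carry a dot for a rise in all 4 columns, and Col14a1 for a rise in astrocytes and a fall in microglia.

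The fibrils were compared with each other within each cell type, as the design asks whether the peptides act differently. In astrocytes none of the 41 tested collagen, laminin and other matrix genes followed here passed the test, and the median member was lower with Aβ42 than with Aβ40 fibrils. In microglia 4 members differed, Col3a1 and Col15a1 being higher and Tnc and Vcan lower with Aβ42 than with Aβ40 fibrils. In astrocytes 0 of 41 members were higher and 0 lower by edgeR's quasi-likelihood test, where 0.0599% and 0.0257% of all genes were (7 and 3 of 11690). At an unadjusted p under 0.05, 0 were higher and 9 lower (22.0% of the members and 6.30% of all genes), and DESeq2 called 0 and 2, Thbs1 and Col3a1. The median member was at −0.25 on the log2 scale. Thbs1, at 109.7, 113 and 104 CPM with Aβ42 and 187, 198 and 190.4 with Aβ40 fibrils, had a log2 value of −0.82 ± 0.15 (adjusted p = 0.0904), and Col3a1 one of −0.65 ± 0.13 (adjusted p = 0.129). Their libraries did not overlap, yet neither passed the test, which does not show that the levels were the same. Both passed when untreated replicate 2 and Aβ42 replicate 3 were left out together (log2 −0.79 and −0.57, adjusted p = 0.0333 and 0.0454). Both genes were chosen here after their values were seen.

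In microglia 2 of 34 members were higher with Aβ42 than with Aβ40 fibrils, where 11.3% of all genes were, and 2 were lower, where 9.01% were. Both shares are under those of all genes. Col15a1, a basement membrane collagen related to Col18a1, had 5.68, 4.62 and 5.72 CPM with Aβ42 and 3.5, 2.00 and 0.506 with Aβ40 fibrils, without overlap (log2 1.19 ± 0.36, adjusted p = 0.0394). Col3a1, with 3.49, 12.2 and 14.6 beside 1.61, 4.5 and 5.06, overlapped between the fibrils (log2 1.70 ± 0.43, adjusted p = 0.0259). Vcan was lower with Aβ42 fibrils by −0.57 ± 0.13 (adjusted p = 0.0219) and Tnc by −0.51 ± 0.10 (adjusted p = 0.0146). All 4 calls depended on single libraries. Leaving out Aβ42 replicate 2 or 3 or Aβ40 replicate 1 or 2 left 0 higher and 0 lower, and leaving out Aβ40 replicate 3 left 0 higher and 1 lower (Tnc), so that Col15a1 ranged from 0.91 to 1.77, Col3a1 from 1.28 to 1.98, Vcan from −0.59 to −0.46 and Tnc from −0.56 to −0.44 where the call was lost. Without Aβ42 replicate 1 there were 10 higher and 6 lower.

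The responses of the cell types were then compared directly, through an interaction term fitted over the 18 libraries together. Some genes moved in opposite directions, Col14a1 rising in astrocytes and falling in microglia and Col11a1 doing the reverse, while Col4a1 rose in both but further in microglia. With Aβ42 fibrils the response of 25 of 43 members differed, where that of 37.3% of all 11581 genes did, 7 being more positive in astrocytes and 18 more positive in microglia. With Aβ40 fibrils 16 differed, 6 and 10, where 32.5% of all genes did, a share near the background. Leaving out 1 library at a time gave 19 to 30 with Aβ42 and 11 to 21 with Aβ40 fibrils. The count with Aβ42 fibrils was 19 without untreated astrocyte replicate 3 or microglia Aβ42 replicate 2, 29 without untreated astrocyte replicate 2 and 30 without microglia Aβ42 replicate 1. With Aβ40 fibrils it was 11 without untreated microglia replicate 1 and 21 without untreated astrocyte replicate 2. The median difference was −0.89 with Aβ42 and −0.41 with Aβ40 fibrils, against −0.038 and −0.0065 for all genes.

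For Col14a1 the difference, astrocytes minus microglia, was 6.04 ± 0.29 on the log2 scale with Aβ42 (adjusted p = 2.01e-11) and 5.66 ± 0.34 with Aβ40 fibrils (adjusted p = 4.31e-10). Untreated, the levels of Col14a1 were higher in astrocytes, at 11.6 ± 0.836 and 7.58 ± 2.08 CPM, and after treatment the microglia libraries held at most 1.25 CPM and the astrocyte libraries at least 80.0. Col11a1 had differences of −2.43 ± 0.26 (adjusted p = 6.75e-07) and −2.23 ± 0.26 (adjusted p = 2.33e-06). The 6 treated microglia libraries held at least 150.2 CPM and the treated astrocyte libraries at most 75.2, while every untreated astrocyte library was above every untreated microglia library. Col18a1, the basement membrane collagen that holds endostatin, differed by −2.29 ± 0.33 (adjusted p = 2.22e-05) and −1.78 ± 0.33 (adjusted p = 0.000339). Col4a1 differed by −1.81 ± 0.28 (adjusted p = 5.45e-05) and −1.51 ± 0.28 (adjusted p = 0.000418), with its level in treated microglia, at most 260.2 CPM, still under that of treated astrocytes, at least 523. Col1a1 differed with Aβ42 fibrils by −1.79 ± 0.29 (adjusted p = 7.22e-05), and Vcan with Aβ40 fibrils by −1.47 ± 0.25 (adjusted p = 0.000158).

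**Figure D5:**
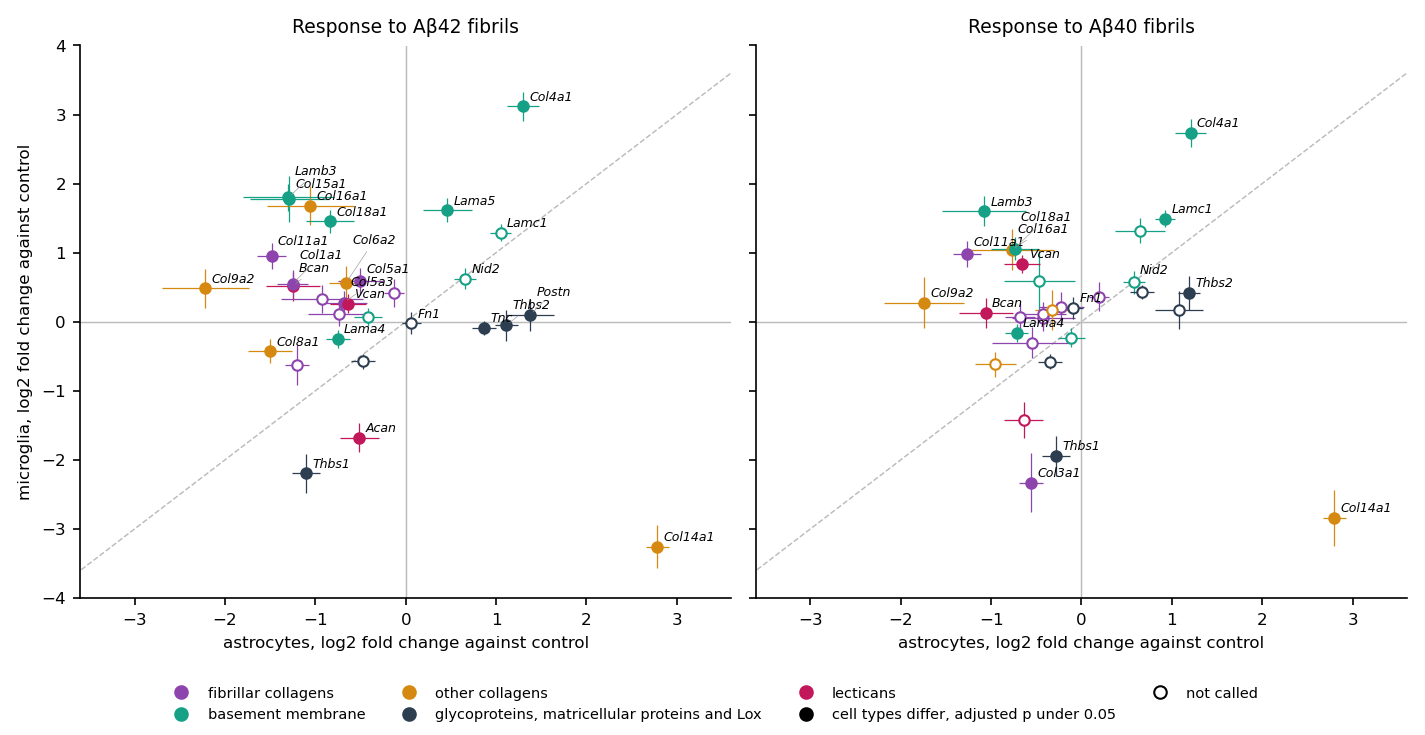
Log2 fold change against untreated cells in astrocytes (x axis) and microglia (y axis) for the members reported here that were tested in both, with Aβ42 fibrils (left) and Aβ40 fibrils (right), SE as lines, colour by role, filled where the cell types differ at an adjusted p under 0.05, and a dashed line for equal change. Col14a1 lies at 2.78 and −3.26 with Aβ42 fibrils and 2.80 and −2.84 with Aβ40 fibrils, and Col4a1 at 1.30 and 3.12 and at 1.21 and 2.73.

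The rest of the pathway was read in 3 lists, of collagen processing enzymes, matrix receptors, and other matrix proteins with the hyaluronan genes. In astrocytes the third list moved mostly down, with 23 of 38 tested genes lower and 4 higher with Aβ42 fibrils and 21 lower and 6 higher with Aβ40 fibrils (medians −0.83 and −0.68 on the log2 scale). Of all tested genes, 20.4% were lower and 16.5% higher with Aβ42 fibrils and 18.4% and 14.9% with Aβ40 fibrils. Has2, the enzyme that makes hyaluronan and so the scaffold of the lecticans, went against the list. It had 2.36, 2.47 and 1.56 CPM in the untreated libraries, 75.8, 85.4 and 96.1 with Aβ42 and 70.5, 62.2 and 64.6 with Aβ40 fibrils, without overlap (log2 5.43 and 5.05, adjusted p = 1.24e-08 and 2.07e-08). Ltbp1, which holds latent TGF-β in the matrix, rose by 1.57 and 1.29. Fbln1, encoding fibulin 1 of elastic fibres and basement membranes and also a member of the fibroblast list that was lower in treated astrocytes, fell with Aβ42 fibrils from 51.5 ± 3.34 to 9.81 ± 0.567 CPM (log2 −2.41) and with Aβ40 fibrils by −2.09. Thbs4 fell with Aβ42 fibrils from 37.2 ± 0.856 to 2.15 ± 0.727 CPM (log2 −4.15), and Fbln5, of elastic fibres, with Aβ40 fibrils from 39.8 ± 5.16 to 4.19 ± 0.526 CPM (log2 −3.24). Each was named for its p in that comparison alone, and neither was called between the fibrils. Among 21 tested receptors 6 rose and 9 fell with either fibril (medians −0.63 and −0.28). Cd44, the hyaluronan receptor, rose by 1.88 and 1.63, and Ddr2, a receptor for fibrillar collagen, by 1.90 and 1.71.

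The collagen-binding integrin chain Itga11 fell in astrocytes from 9, 17 and 42 counts to 5, 1 and 0 with Aβ42 and 0, 3 and 6 with Aβ40 fibrils (log2 −4.04 and −3.86). Without Aβ42 replicate 1 or Aβ40 replicate 3 the treated counts left are too few for a fold, and the gene passed the test there. The laminin receptor chain Itga6 fell with Aβ42 fibrils by −1.12 and the chain Itga8 with Aβ40 fibrils by −1.13. Each was named for its p in that comparison alone, and 0 of 21 tested receptors were called between the fibrils. Of 24 tested processing genes, 4 rose and 3 fell with Aβ42 fibrils and 3 rose and 3 fell with Aβ40 fibrils (medians 0.01 and 0.06), shares near or under those of all genes. Tll1, a protease that trims procollagens, rose from 1.91 ± 0.524 to 17.5 ± 1.81 CPM with Aβ42 fibrils (log2 3.27) and by 2.76 with Aβ40 fibrils. P4ha2, a catalytic subunit of collagen prolyl hydroxylase, rose by 1.71 and 1.58, and the cross-linking enzyme Loxl1 fell by −1.13 and −1.07. Between the fibrils 1 gene of the third list was called in astrocytes, where 0.0257% of all genes were lower. Fmod, encoding the collagen-binding fibromodulin, was lower with Aβ42 fibrils (log2 −1.27, adjusted p = 0.0072). That call was lost without Aβ42 replicate 2 (−1.24) or 3 (−1.29) or Aβ40 replicate 2 (−1.22) or 3 (−1.23).

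In microglia more genes of each of the 3 lists rose than fell, where 27.1% of all tested genes rose and 26.6% fell with Aβ42 fibrils and 19.6% and 21.4% with Aβ40 fibrils. Of 35 tested genes of the third list, 16 rose and 8 fell with Aβ42 fibrils and 12 rose and 8 fell with Aβ40 fibrils (medians 0.59 and 0.42). Dcn, encoding the small collagen-binding proteoglycan decorin, had 0.917, 0 and 0.506 CPM in the untreated libraries, 92.6, 74.7 and 71.5 with Aβ42 and 76.9, 69.2 and 69.3 with Aβ40 fibrils. It rose without overlap by 7.11 and 7.0 (adjusted p = 3.83e-09 and 5.83e-09). Its untreated libraries without replicate 1 hold 0 and 3 counts, too few for a fold, and it passed the test there too. Dcn is also a member of the fibroblast list. Has2 had 0.786, 0.432 and 1.35 CPM untreated, 8.3, 10.4 and 9.17 with Aβ42 and 11.8, 10.7 and 12.6 with Aβ40 fibrils (log2 3.39 and 3.70). Sparcl1, a relative of Sparc known from astrocytes, fell by −1.44 and −1.14, and Fmod by −1.45 and −1.26. Of 20 tested receptors, 12 rose and 3 fell with Aβ42 fibrils and 9 rose and 2 fell with Aβ40 fibrils (medians 0.78 and 0.47). Sdc4, a heparan sulfate co-receptor for fibronectin, rose from 111 ± 14.7 to 1058 ± 73.3 CPM with Aβ42 fibrils (log2 3.24) and by 3.06 with Aβ40 fibrils. Itga5, of the fibronectin receptor, rose by 2.51 and 2.43, while Itga6 fell by −3.10 and −2.61 and Itgb5, of a vitronectin receptor, by −3.01 and −3.44. Of 22 tested processing genes, 10 and 9 rose and 3 fell with either fibril (medians 0.46 and 0.13). Tll1 rose by 4.09 and 4.41, and P4ha2 by 1.83 and 1.68.

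Between the fibrils in microglia, 1 of 22 tested processing genes was higher with Aβ42, 3 of 20 receptors were higher and 4 lower, and 3 of 35 genes of the third list were higher and 2 lower. Of all tested genes 11.3% were higher and 9.01% lower, so the processing genes and the third list lay under these shares. Matn4, encoding a matrilin, was higher with Aβ42 fibrils at 1.75, 2.61 and 2.54 beside 0.538, 0.9999 and 1.52 CPM (log2 1.38, adjusted p = 0.036). Tnr, encoding tenascin R of oligodendrocytes and neurons, had 234, 105 and 83.6 CPM with Aβ42 and 268, 321 and 302 with Aβ40 fibrils (log2 −1.13, adjusted p = 0.0307). Fbn2, encoding the microfibril protein fibrillin 2, had 0, 0.492 and 0.325 beside 2.69, 1.25 and 0.506 CPM (log2 −2.05, adjusted p = 0.0391). All 3 calls were lost without Aβ42 replicate 2 or 3 or any Aβ40 replicate, with log2 values of 1.04 to 1.64 for Matn4, −1.19 to −0.84 for Tnr and −2.49 to −1.35 for Fbn2, and that of Matn4 also by DESeq2 (1.36).

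Between the untreated cell types the third list stood higher in astrocytes, with 29 of 40 tested genes higher there and 5 in microglia (median 2.08), where 34.5% and 34.2% of all genes were. Sparcl1 was higher in astrocytes by 4.0 on the log2 scale and Ntn4, a laminin-binding netrin, by 4.24, while Spp1, encoding osteopontin, was higher in microglia, at −4.19, and Spock1, a testican, at −2.30. Of 22 tested receptors 12 were higher in astrocytes and 7 in microglia (median 1.16). Itgb4, a laminin receptor chain that pairs with Itga6, had 992, 632 and 1033 CPM in astrocytes and 5.76, 8.2 and 4.72 in microglia (log2 7.18). Ddr2 was higher in astrocytes by 2.36, and Itgb3 and Itga6 were at −4.77 and −1.27, higher in microglia. Of 24 tested processing genes 11 were higher in astrocytes and 7 in microglia (median 0.02). P4ha3 and Loxl3 were higher in astrocytes by 4.27 and 2.21, and the collagen galactosyltransferase Colgalt1 and the prolyl hydroxylase subunit P4hb were at −2.19 and −1.02, higher in microglia.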

How the data were processed

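Gene counts were analysed from poly(A) RNA libraries (TruSeq Stranded mRNA) of the 18 samples. The authors aligned reads with STAR to the rat genome build rn5 and name Salmon and DESeq2, and deposited whole-number counts per gene symbol that were not normalized. Versions, annotation and the strand setting of the counting are not given in the sources used here. Reads on no gene or on several genes, 26.0% to 34.2% of counted reads in astrocytes and 21.7% to 24.5% in microglia, were left out. Counts were scaled by TMM, filtered by filterByExpr and fitted with edgeR 4.0.16 (glmQLFit, glmQLFTest, limma 3.58.1, R 4.3.3) without covariates, the 9 libraries of a cell type together. Differences between the cell types used all 18 libraries and the 16704 symbols common to both sets of tables. P-values were adjusted by Benjamini-Hochberg over all tested genes, and the procedure was tested on simulated data. For Aβ42 fibrils against control it called 84% of simulated 2-fold changes in astrocytes (11625 genes) and 83% in microglia (10782 genes), but 39% for the difference between the cell types' responses (11380 genes), and 100% of 4-fold changes in each. Changes were simulated only in genes above a limit of counts, with the same spread for every gene and no library apart from its group. These shares therefore do not hold for members with few counts or for groups with a deviating library. No fold is given against a group with at most 3 counts in every library.

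Named genes were a set chosen by role, whatever their values, and in each comparison up to 5 members in each direction, taken in order of p from those that passed an adjusted p of 0.05, changed at least 2-fold and had separate ranges in both groups. Of each list of other matrix genes the 2 in each direction were named by the same rule, and between the cell types' responses the 5 members with the smallest p. Of the 47 members, 1 is counted with the others but not reported here on its own, in the text or the plots. Other members, chosen after their values were seen, are named where a count is small or depended on a single library. The members and lists were chosen with earlier results of these data known. Alternatives were DESeq2 1.42.0 size factors and its Wald test, library totals, no filter, a 2-fold threshold, the replicate number as a covariate, leaving out each replicate and, chosen after the data were seen, leaving out 2 astrocyte libraries together.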

Additional observations from a re-analysis of the deposited data

Results flagged for a closer look

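By an interaction term tested in edgeR, with p-values adjusted after Benjamini and Hochberg, the response to fibrils differed between astrocytes and microglia for 25 of 43 tested matrix genes with Aβ42 fibrils, where it did for 37.3% of all genes, and for 16 with Aβ40 fibrils, where it did for 32.5% of all genes, a share near that of the matrix genes. With Aβ42 fibrils the genes named for the smallest p were Col14a1 (log2 difference, astrocytes minus microglia, 6.04), Col11a1 (−2.43), Col18a1 (−2.29), Col4a1 (−1.81) and Col1a1 (−1.79). With Aβ40 fibrils they were Col14a1 (5.66), Col11a1 (−2.23), Vcan (−1.47), Col18a1 (−1.78) and Col4a1 (−1.51). Both fibrils share the untreated libraries of each cell type. Causes of these differences were not tested.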

How the results depend on the processing

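With DESeq2 size factors, library totals or no filter on low counts, all 16 counts of members stayed within 1.5 times the reported value. At 2-fold or more, 5 members fell with Aβ40 fibrils in astrocytes, and 0 were lower with Aβ42 than with Aβ40 fibrils in microglia. DESeq2's Wald test called 2 members lower with Aβ42 than with Aβ40 fibrils in astrocytes. Leaving out 1 library at a time gave 9 to 21 members that fell with Aβ42 and 7 to 17 with Aβ40 fibrils in astrocytes, and in microglia 0 to 10 higher and 0 to 6 lower with Aβ42 than with Aβ40 fibrils. The cause was not tested, and the fits with 1 library fewer also have less to estimate the spread from.

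Of 223 log2 values of named genes, 2 became stronger than the threshold with DESeq2 size factors, 7 with DESeq2's Wald test, 6 with library totals and 4 with no filter, while 2 calls were lost with library totals, 1 with no filter and 1 with DESeq2's Wald test. Values given only to show which members moved a count are not among these. Of the values the block could be fitted for, 12 lost their call with it and 4 gained one. In fits without 1 library, 107 values lost their call, 25 gained one and 1254 kept their side of the threshold and their direction. The sign turned in 12 such fits, all of genes that were not called. In astrocytes with Aβ40 fibrils Col5a1 lay between −0.43 and 0.0012 and Lamb2 between −0.25 and 0.067. In microglia with Aβ42 fibrils Col27a1 lay between −0.046 and 0.28, Lamb2 between −0.048 and 0.18, Fn1 between −0.22 and 0.10, Postn between −0.089 and 0.19 and Thbs2 between −0.26 and 0.20. With Aβ40 fibrils Col27a1 lay between −0.046 and 0.22. The cause was not tested.

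The libraries share replicate numbers, but libraries of the same number did not all deviate together, with correlations from −0.64 to 0.44 in astrocytes and −0.22 to 0.26 in microglia. Some astrocyte libraries of different numbers deviated together, untreated 2 with Aβ42 3 (0.62) and Aβ40 1 (0.57), Aβ42 3 with Aβ40 1 (0.62) and Aβ42 1 with Aβ40 2 (0.61). Leaving out untreated 2 and Aβ42 3 together, chosen after seeing the data, gave 9 members that rose and 21 that fell with Aβ42, 10 and 17 with Aβ40 fibrils and 0 higher and 2 lower between the fibrils. In these comparisons and between the untreated cell types, 9 values of named genes then gained a call and 1, Acan with Aβ40 fibrils, lost it. With the replicate number as a block, 9 members rose and 13 fell with Aβ42 and 10 and 9 with Aβ40 fibrils in astrocytes. In microglia the block gave 15 and 5 with Aβ42, 13 and 6 with Aβ40 fibrils, and 0 higher and 2 lower between the fibrils. The responses of the cell types differed for 22 and 13 members with the block. Col1a2, Col5a3 and Lama4 were among the members whose difference with Aβ42 fibrils lost its call there. In the comparisons within a cell type, calls of named genes lost with the block were Col18a1, Col15a1, Col7a1 and Vcan with Aβ42 and Vcan and Acan with Aβ40 fibrils in astrocytes, and between the fibrils Fmod in astrocytes and Col3a1, Col15a1, Matn4, Tnr and Fbn2 in microglia. Calls gained with it were Col1a2 and Ncan in astrocytes and Bcan and Col8a1 in microglia, all with Aβ42 fibrils. Depth limits the low genes most, since 3 counts are worth up to 1.32 CPM in the shallowest microglia library.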
